A study of Rattus norvegicus with 28 samples.

Results

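Transcripts of the mitochondrial genome and of the nuclear genes that copy, transcribe and handle it were followed in heart muscle cells isolated from adult rats. The members were all genes of the RNA table located on the mitochondrial chromosome, plus the nuclear genes Tfam, Tfb1m, Tfb2m, Polrmt, Lrpprc and Slirp and those whose symbols begin with Mterf, Polg or Fastk. They numbered 44 of 11383 listed genes: 28 mitochondrially encoded (12 protein-coding, 2 rRNA and 14 tRNA features) and 16 nuclear. The rule used positions and symbols, not measured values. Of the mitochondrial genes, Mt-nd4 and several tRNA genes were not analysed here.

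RNA was sequenced from 3 libraries of cells that received an adenovirus with an shRNA against desmin (shDesmin) and 3 libraries of cells that received a null adenovirus (null). Cells in both groups came from rats aged 6 to 8 months and were kept in culture for 48 hours. Desmin builds the intermediate filaments that tie the contractile apparatus of muscle to the cell's surface and nucleus. The treatment protocol in the labels describes the control as scrambled whereas the RNA labels give null virus, so the presence of an shRNA may also separate the groups. Whether separate animals or cultures stand behind the 3 libraries of each group is not stated in the labels, and the p-values cover the spread among those libraries alone, which may be technical. In bulk RNA, fewer cells of a type and less RNA per cell cannot be told apart.

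Mitochondrial DNA is transcribed in long polycistronic RNAs from both strands by the polymerase Polrmt, which needs the DNA-bending factor Tfam and the promoter-melting factor Tfb2m. Enzymes release the tRNAs that lie between most other genes, and so free the rRNAs of the mitochondrial ribosome and the mRNAs. Those mRNAs encode core subunits of the respiratory chain and ATP synthase, and heart muscle, which relies on oxidative metabolism, holds them in large amounts. Lrpprc and Slirp bind and stabilise the mRNAs, and Fastk family proteins act on processing and stability of single transcripts.

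Of the 16 nuclear genes, 14 had promoter entries in RefSeq (GRCr8 assembly), giving 15 windows of 250 bases upstream of a start site. The core bound by ETS factors such as Gabpa, a known activator of nuclear genes for mitochondrial proteins, was searched on both strands as CCGGAAG and lay in 6 windows, those of Fastk, Tfam, Polrmt, Mterf1, Slirp and Polg. It was present in 7.27% of all 33469 promoter windows of that length. The core of the factor Nrf1, searched as GCGCANGCG, lay in the Fastkd3 and Tfb2m windows and in 5.09% of all windows. Shown here are 2 ETS-core windows of genes whose transcript was higher in shDesmin cells on the deposited scale (Fastk and Tfam) and 2 of genes whose transcript was lower (Polrmt and Mterf1). Capitals mark the core, which reads CTTCCGG where it lies on the other strand. All 4 genes are on the plus strand, at chr4:11624477-11624726 for Fastk, chr20:17355123-17355372 for Tfam, chr7:10609946-10610195 for Polrmt and chr4:31180882-31181131 for Mterf1.
Fastk: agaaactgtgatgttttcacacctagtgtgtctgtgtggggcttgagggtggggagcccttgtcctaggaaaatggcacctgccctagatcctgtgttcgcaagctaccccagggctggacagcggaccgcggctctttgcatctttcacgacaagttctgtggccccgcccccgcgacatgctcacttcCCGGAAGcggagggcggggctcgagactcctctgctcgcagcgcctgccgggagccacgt
Tfam: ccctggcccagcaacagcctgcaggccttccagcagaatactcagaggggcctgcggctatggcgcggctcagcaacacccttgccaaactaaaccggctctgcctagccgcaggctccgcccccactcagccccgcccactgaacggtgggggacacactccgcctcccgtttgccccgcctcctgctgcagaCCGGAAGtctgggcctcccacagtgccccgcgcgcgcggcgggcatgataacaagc
Polrmt: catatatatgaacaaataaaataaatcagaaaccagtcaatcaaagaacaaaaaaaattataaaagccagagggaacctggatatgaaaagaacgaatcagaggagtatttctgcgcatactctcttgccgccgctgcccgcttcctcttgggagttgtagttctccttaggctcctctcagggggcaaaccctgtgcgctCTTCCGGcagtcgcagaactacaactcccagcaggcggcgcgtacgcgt
Mterf1: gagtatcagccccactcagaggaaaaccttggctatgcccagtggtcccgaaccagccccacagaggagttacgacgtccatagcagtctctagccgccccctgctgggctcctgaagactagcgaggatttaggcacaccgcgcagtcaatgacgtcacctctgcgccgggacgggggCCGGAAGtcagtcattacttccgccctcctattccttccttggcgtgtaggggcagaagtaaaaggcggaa
The same letters thus stood upstream of genes with higher and of genes with lower transcripts. A match describes the letters in the window, not a bound site.

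The RNA libraries held 9615721, 9168307 and 9817421 reads over the listed genes in shDesmin cells and 9205608, 8724543 and 10908458 reads in null cells. The targeted transcript Des averaged 9.18 ± 0.12 log2 CPM in shDesmin cells and 12.57 ± 0.03 log2 CPM in null cells (SD, n = 3 each), a 10.5-fold lower level (limma adjusted p = 7.3e-09). Levels here are log2 CPM, read counts set against library size on the scale the authors deposited. The scale factors implied by that scale were 0.73 to 0.83 in shDesmin libraries and 1.17 to 1.42 in null libraries. Dividing by plain library totals instead moved the median fold of all 11033 tested genes by -0.71 on the log2 scale, and totals without mitochondrial genes moved it by -0.54. Values under library totals are therefore set beside the main results, and ratios within a library, which need no scale, are given where they can be. Cardiomyocyte markers were abundant (47472 to 55986 summed CPM over 9 genes in shDesmin cells and 16519 to 20974 in null cells).

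All 44 members passed the filter on low values. On the deposited scale 32 of them were higher in shDesmin cells and 6 were lower (limma, Benjamini-Hochberg adjusted p under 0.05), where 27.5% of all tested genes were higher and 31.4% lower. All 28 mitochondrially encoded genes were among those higher, with a median log2 fold of 1.18 against -0.04 over all tested genes. The 16 nuclear genes split, with 4 higher, 6 lower and 6 not called, and a median log2 fold of -0.04. The 3 shDesmin and 3 null values did not overlap for 27 of the 28 mitochondrially encoded genes and 10 of the 16 nuclear genes, where 64.9% of all tested genes showed no overlap. Scaled by library totals, 20 of the 28 were called higher and 0 lower, while of the nuclear genes 14 were lower and 0 higher, with the same counts in limma at an unadjusted p under 0.05. Under that scaling 7.27% of all tested genes were higher and 62.5% lower, so lower calls were the general pattern there.

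Mitochondrially encoded genes supplied 35.0%, 39.1% and 39.0% of all reads in the shDesmin libraries and 24.7%, 30.6% and 34.5% in the null libraries. Each shDesmin library lay above each null library, but the third null library came within a percentage point of the first shDesmin one. The means were 37.7% ± 2.33 in shDesmin cells and 29.9% ± 4.93 in null cells (SD, n = 3 each), a difference of 7.76 percentage points with an exact two-sided permutation p of 0.1, the smallest that 3 against 3 libraries can give. Without the first null library, which held the lowest share, the difference was 5.15 points. This share was 1 of 13 library-level quantities compared by exact permutation, and those at p = 0.1 had an adjusted p of 0.118 over the 13.

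**Figure D1:**
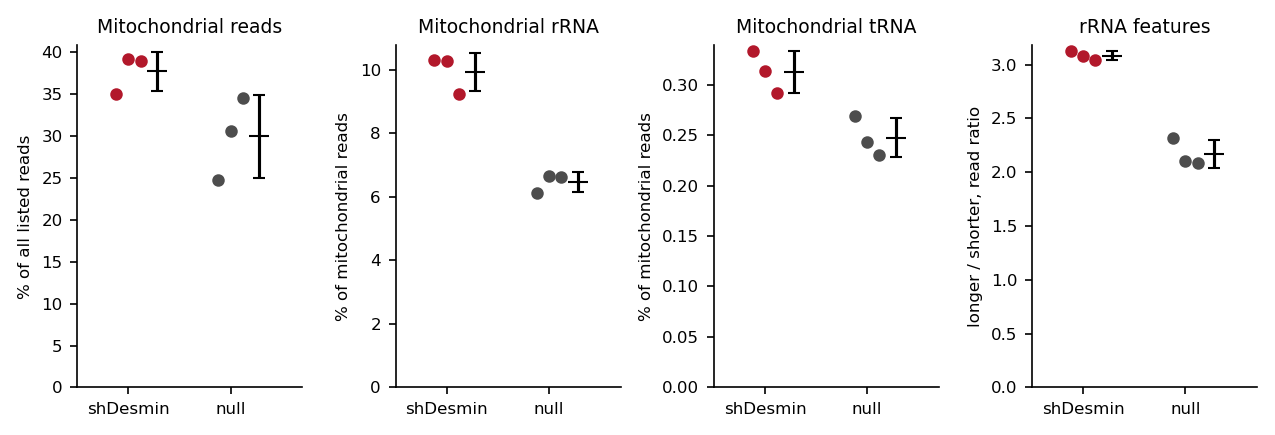
Make-up of mitochondrial reads in each library, with points for single libraries and bars for the mean and SD of the 3 shDesmin (left) and 3 null (right) libraries. From left, the y axes give mitochondrial reads as % of all listed reads, rRNA and tRNA reads as % of mitochondrial reads, and the ratio of reads of the longer to the shorter rRNA. The groups are separate in each panel, most narrowly in the first, where the closest libraries stood at 35.0% and 34.5%.

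The make-up of the mitochondrial RNA itself also differed. The rRNA features took 10.3%, 10.3% and 9.23% of mitochondrial reads in shDesmin libraries and 6.10%, 6.66% and 6.63% in null libraries. Protein-coding genes took the complement almost in full, at 89.4%, 89.4% and 90.5% in shDesmin libraries and 93.6%, 93.1% and 93.1% in null libraries. The tRNA features held 0.333%, 0.314% and 0.292% in shDesmin libraries and 0.269%, 0.243% and 0.231% in null libraries. For each of these 3 classes the groups did not overlap (exact permutation p = 0.1 each). For every 100 mitochondrial mRNA reads there were 11.1 ± 0.75 rRNA reads in shDesmin cells and 6.93 ± 0.35 in null cells (SD, n = 3 each), a ratio of 1.60 between the groups. Whether the RNA was selected for poly(A) tails or cleared of rRNA is not given in the sources used here, and such a step would act on these shares.

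Both rRNA features lie at the head of the map, the shorter at 68 to 1025 (AY172581.9, 958 bases) and the longer at 1094 to 2664 (AY172581.24, 1571 bases) of rn6 chromosome MT. They form the RNA core of the mitochondrial ribosome's subunits. The longer one stood at 15.00, 15.34 and 15.08 log2 CPM in shDesmin libraries, against 12.86, 13.41 and 13.69 in null libraries. Its mean was 3.52-fold higher in shDesmin cells (log2 fold 1.82, SE 0.22, limma adjusted p = 4.1e-05), and the groups did not overlap. The shorter one stood at 13.36, 13.72 and 13.47 log2 CPM in shDesmin libraries, against 11.65, 12.34 and 12.63 in null libraries, and was 2.48-fold higher (limma adjusted p = 0.00042). The pair therefore shifted unequally. Reads of the longer over the shorter were 3.12, 3.08 and 3.05 in shDesmin libraries and 2.31, 2.10 and 2.09 in null libraries, with a clear gap between groups and p = 0.1 (exact permutation). Library totals left both higher, at log2 folds of 1.11 (adjusted p = 4.6e-05) and 0.60 (0.006). Quantile normalization gave 0.16 (adjusted p = 0.25) and 0.05 (0.76). It gives each rank the same value in every library, which limits how far a rise shared by the top-ranked genes can show.

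The 12 protein-coding genes were higher by 1.72-fold (Mt-nd1) to 2.34-fold (Mt-nd5), with a median log2 fold of 1.04. For the gene with the most reads, Mt-co1, which encodes the catalytic subunit of cytochrome c oxidase (chromosome MT, 5323 to 6867), the levels were 16.74, 17.02 and 16.85 log2 CPM in shDesmin libraries and 15.51, 15.93 and 16.14 in null libraries. That is 2.01-fold higher in shDesmin cells (log2 fold 1.01, SE 0.27, limma adjusted p = 0.007). The first null library was the lowest of the 6 for all 12 genes, as the level of Mt-nd1, a complex I subunit, illustrates at 14.97, 15.35 and 15.28 log2 CPM in shDesmin libraries and 14.04, 14.47 and 14.73 in null libraries. Mt-nd5, another complex I subunit, stood at 13.20, 13.45 and 13.34 log2 CPM in shDesmin libraries and 11.90, 12.16 and 12.28 in null libraries (adjusted p = 3.3e-05), so its groups were further apart than those of Mt-nd1 relative to their spread. Under library totals 8 of the 12 genes were called higher, where 7.27% of all tested genes were. Mt-nd1 (log2 fold 0.07), Mt-co2 (0.09), Mt-nd3 (0.10) and Mt-nd6 (0.23) were not. After quantile normalization the median log2 fold of the 12 was 0.01, with 2 called higher, 2 lower and 8 not called, where 28.2% of all tested genes were higher and 28.9% lower. The 2 lower were Mt-nd1 (log2 fold -0.36, adjusted p = 0.024) and Mt-co2 (-0.19, 0.045). As that step fixes the value at each rank, a rise shared by the top-ranked genes is largely removed by construction. Mt-co1 and Mt-atp6 stood at a log2 fold of 0.0 there, and a lower call reflects a lower rank. On the deposited scale the complex III subunit Mt-cyb stood at a log2 fold of 1.15 and the complex I subunit Mt-nd2 at 1.00.

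Per kilobase of gene, the order of the mRNAs was led by the ATP synthase subunit gene Mt-atp6 in all 6 libraries, at 90147 to 120080 CPM per kb in shDesmin cells and 36759 to 67933 in null cells. Mt-co1 had 71063 to 85869 CPM per kb in shDesmin cells and 30179 to 46858 in null cells. Its neighbour in the order, Mt-co2, had 54541 to 74879 in shDesmin cells and 26432 to 52974 in null cells, which overlaps Mt-co1 within each group. At the low end stood Mt-nd4l, a small complex I subunit, with 2530 to 2999 CPM per kb in shDesmin cells and 1130 to 1353 in null cells. Next came Mt-nd3, with 3894 to 5160 in shDesmin cells and 1840 to 3634 in null cells, and Mt-nd5, with 5144 to 6134 in shDesmin cells and 2081 to 2709 in null cells, whose ranges overlap those of Mt-nd3 within each group. Mt-nd6, also a complex I subunit, had 4835 to 6235 in shDesmin cells and 2219 to 3448 in null cells, which overlaps both. Mt-atp8 shares 43 bases with Mt-atp6, Mt-nd5 shares 23 with Mt-nd6 and Mt-cox3 shares 1 with Mt-atp6. How reads in shared bases were assigned, and whether counting used the strand, is not given in the sources used here. Mt-nd6 lies on the opposite strand from the other mRNAs, so its reads and those of transcripts antisense to it cannot be told apart.

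Set against the summed reads of the mitochondrial mRNAs, a scale that only asks whether a gene kept its share, none of the 12 mRNAs was called by limma, and 0 of them had an unadjusted p under 0.05 either. Their log2 folds on that scale ran from -0.21 (Mt-nd1) to 0.22 (Mt-nd5). Each gene is part of the sum it is compared with. Mt-co1 took 29.3%, 27.8% and 26.2% of mitochondrial mRNA reads in shDesmin libraries and 28.5%, 27.7% and 26.3% in null libraries, which overlap. Mt-nd1 took 8.56%, 8.76% and 8.85% in shDesmin libraries and 10.3%, 10.1% and 9.88% in null libraries, a smaller share in every shDesmin library, with an adjusted p of 0.075 in limma. The groups also separated for Mt-cyb, at 10.3% to 11.2% in shDesmin libraries and 9.28% to 10.1% in null libraries. So they did for Mt-cox3, with a larger share in shDesmin libraries (8.97% to 9.11%) than in null libraries (8.47% to 8.82%). For Mt-nd3 they separated the other way, at 0.361% to 0.383% in shDesmin libraries and 0.392% to 0.459% in null libraries. Shares of the remaining mRNAs overlapped. Limma standard errors borrow from all tested genes (0.11 for Mt-nd1), so the lack of calls does not show that shares were kept.

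On that same scale 6 of the 28 mitochondrial features were called higher and 0 lower (0 lower at an unadjusted p under 0.05 too), where 2.77% of all tested genes were higher and 66.1% lower. They were both rRNAs, at log2 folds of 0.82 (adjusted p = 3.5e-08) for the longer and 0.31 (0.043) for the shorter, and 4 tRNA features. The largest of these folds was 0.97 (adjusted p = 0.0032), for the tRNA feature at 2665 to 2739 (AY172581.14). This feature abuts the longer rRNA on one side and Mt-nd1 on the other with no base between. The other 3 were AY172581.21 at 0.77 (0.0036), AY172581.20 at 0.81 (0.011) and AY172581.15 at 0.80 (0.014).

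**Figure D2:**
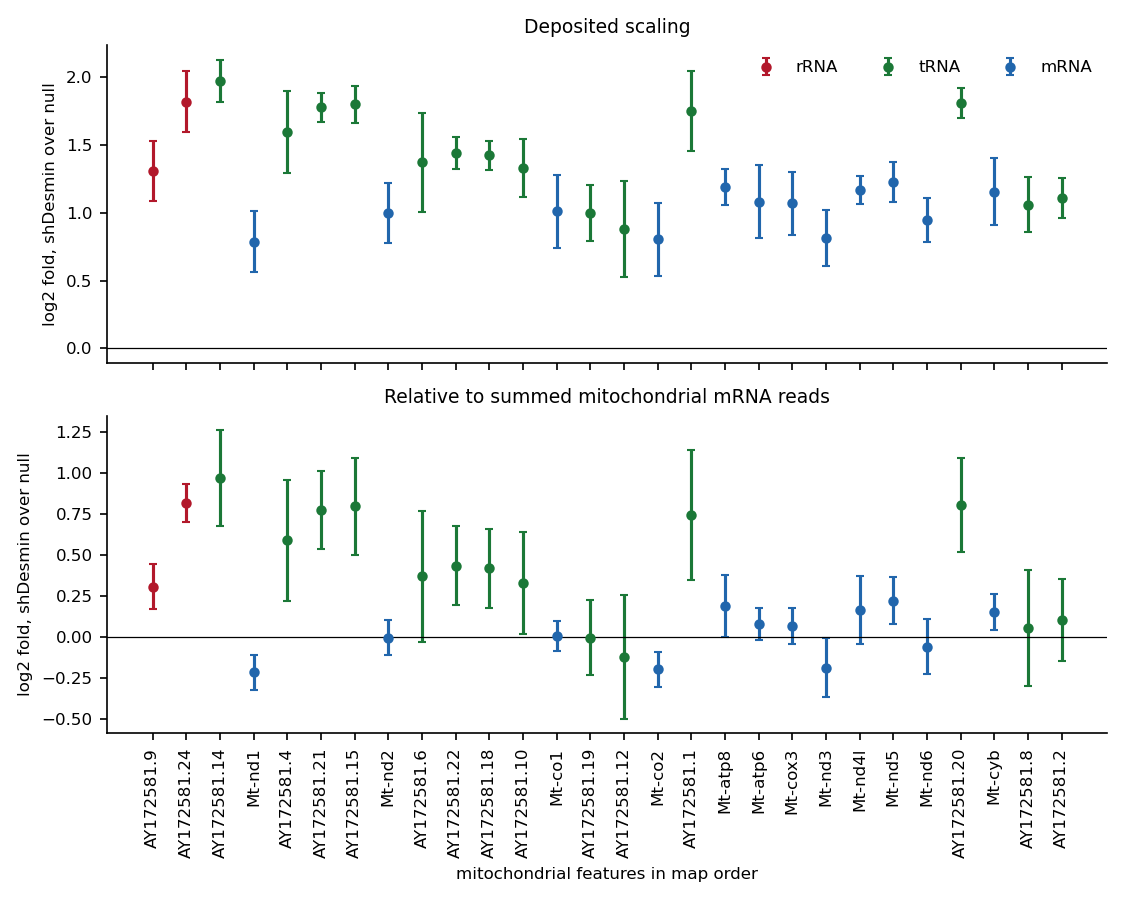
Log2 folds of shDesmin over null for the 28 mitochondrially encoded features in map order (x axis), on the deposited scale (top) and relative to the summed mitochondrial mRNA reads (bottom). Points are limma estimates from 3 shDesmin and 3 null libraries and bars are standard errors. All points lie above 0 in the top panel, while in the bottom panel the mRNAs lie between -0.21 and 0.22 and the longer rRNA and several tRNA features stand higher.

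The 14 tRNA features had a median log2 fold of 1.43 on the deposited scale, and ranged from 0.88 to 1.97. Under library totals 7.27% of all tested genes were higher and 62.5% lower. On that scaling the tRNA median was 0.72 and 10 of the 14 features were called higher. AY172581.6 (0.66), AY172581.8 (0.35), AY172581.19 (0.29) and AY172581.12 (0.17) were not. The 14 features are 64 to 75 bases long, no longer than the 75-base reads, so a counted read may also have come from an unprocessed precursor or a neighbouring gene. Counts were low for some: AY172581.12 (6937 to 7004) had 35, 54 and 39 reads in shDesmin libraries and 23, 39 and 58 in null libraries. It was the single mitochondrial gene whose groups overlapped in log2 CPM, and its adjusted p of 0.049 rose to between 0.062 and 0.19 without the first or second null library or without the second or the third shDesmin library. AY172581.14, by contrast, had 409, 412 and 328 reads in shDesmin libraries and 155, 136 and 193 in null libraries. On the log2 CPM scale that was 5.67, 5.94 and 5.42 in shDesmin libraries and 3.58, 3.63 and 3.93 in null libraries, a 3.91-fold higher level (limma adjusted p = 1.7e-06), with the groups far apart. Among the best-covered tRNA features, AY172581.21 (3761 to 3831) had 2613, 2549 and 2463 reads in shDesmin libraries and 1152, 1189 and 1330 in null libraries, and was 3.42-fold higher (adjusted p = 2.9e-07). AY172581.19 (6865 to 6933) was also well covered, with 2053, 2281 and 2193 reads in shDesmin libraries and 1289, 1749 and 2536 in null libraries, but its 2.00-fold higher level on the deposited scale stood beside a log2 fold of 0.00 relative to the mRNA sum (adjusted p = 1.0). On the deposited scale the features not described so far had log2 folds of 1.74 (AY172581.1), 1.59 (AY172581.4), 1.44 (AY172581.22), 1.42 (AY172581.18), 1.33 (AY172581.10) and 1.11 (AY172581.2). Relative to the mRNA sum, the tRNA log2 folds ran from -0.12 (SE 0.38, AY172581.12) to 0.97 (SE 0.29, AY172581.14). Whether the tRNA features differed among themselves was not tested.

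Among the nuclear genes, the transcription apparatus divided. Tfam, the DNA-packaging and transcription factor (ENSRNOG00000000613, rn6 chromosome 20, 18594037 to 18606151), stood at 6.89, 6.99 and 6.87 log2 CPM in shDesmin libraries and 6.44, 6.62 and 6.65 in null libraries. It was 1.27-fold higher on the deposited scale (adjusted p = 0.0077, limma), without overlap, and lower under library totals (log2 fold -0.36, adjusted p = 0.0066). All tested genes had a median log2 fold of -0.75 under library totals. Polrmt, the RNA polymerase (ENSRNOG00000024879, chromosome 7, 12840938 to 12851153), stood at 4.31, 4.18 and 4.24 log2 CPM in shDesmin libraries and 4.81, 5.22 and 5.14 in null libraries. It was 1.76-fold lower (log2 fold -0.81, SE 0.13, limma adjusted p = 0.00032) and stayed lower under library totals (-1.53) and quantile normalization (-0.71). Library totals shift genes down in general, so that scaling could hardly have turned it. The ratio of Tfam to Polrmt reads needs no scale, and was 6.03, 7.07 and 6.20 in shDesmin libraries and 3.09, 2.64 and 2.85 in null libraries. The lowest shDesmin ratio was nearly double the highest null ratio, and p was 0.1 (exact permutation).

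Tfb1m and Tfb2m encode related proteins of a methyltransferase fold and were called in opposite directions on the deposited scale. Tfb1m, which methylates the small rRNA of the mitochondrial ribosome, stood at 2.34, 3.27 and 2.80 log2 CPM in shDesmin libraries and 3.70, 3.47 and 3.45 in null libraries. It was 1.67-fold lower (adjusted p = 0.015, limma), and without the first shDesmin library, its lowest, the log2 fold was -0.51 with an adjusted p of 0.059. Quantile normalization gave -0.52 with an adjusted p of 0.076. Tfb2m, the initiation factor, stood at 5.90, 6.01 and 6.04 log2 CPM in shDesmin libraries and 5.58, 5.69 and 5.87 in null libraries, with a narrow gap between groups. It was 1.21-fold higher at an adjusted p of 0.048, a call lost without any 1 library other than the third null library (adjusted p 0.055 to 0.14). Under library totals it was lower (log2 fold -0.44, adjusted p = 0.0037), where the median of all tested genes was -0.75. Tfb2m over Tfb1m reads were 11.9, 6.75 and 9.51 in shDesmin libraries and 3.67, 4.66 and 5.37 in null libraries, so every shDesmin library had the higher ratio (exact permutation p = 0.1).

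**Figure D3:**
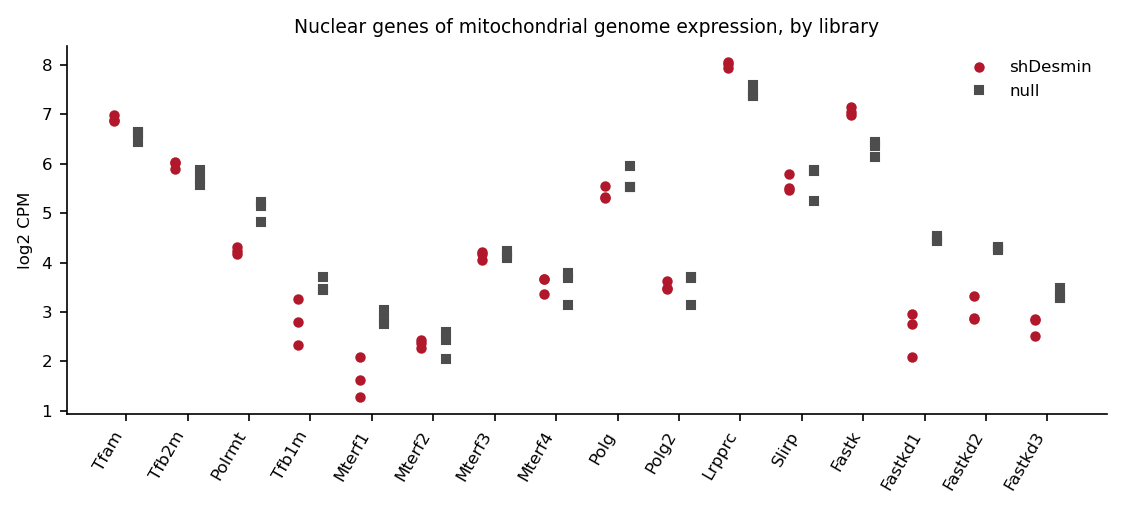
Level of the 16 nuclear genes in each library (y axis, log2 CPM on the deposited scale), with circles for the 3 shDesmin libraries and squares for the 3 null libraries. Fastkd1, Fastkd2 and Polrmt show the shDesmin libraries clearly below the null ones, and Fastk and Lrpprc show them above.

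Of the 4 Mterf genes, named for a mitochondrial transcription termination factor, a single member was called. Mterf1, which binds a site just downstream of the rRNA genes in mammals, had 24, 28 and 18 reads in shDesmin libraries and 87, 90 and 92 in null libraries. Its levels were 1.61, 2.09 and 1.27 log2 CPM in shDesmin libraries and 2.75, 3.03 and 2.86 in null libraries, 2.34-fold lower in shDesmin cells (log2 fold -1.22, SE 0.25, limma adjusted p = 0.0013). The groups did not overlap, and the gene was lower under each scaling tried (log2 folds -2.22 to -1.03). Scalings that shift genes down in general, such as library totals, could hardly have turned it. Median centring (-1.04) and quantile normalization (-1.03) do not shift them down. Mterf2 (log2 fold 0.00, adjusted p = 1.0), Mterf3 (-0.01, 0.96) and Mterf4 (0.04, 0.89) overlapped between groups on the deposited scale. Under library totals they stood at -0.71, -0.72 and -0.68, where the median of all tested genes was -0.75. Mterf3 and Mterf4 are known to act on transcription and on assembly of the mitochondrial ribosome.

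The DNA polymerase gamma genes were not called. Polg, the catalytic subunit, stood at 5.56, 5.31 and 5.34 log2 CPM in shDesmin libraries and 5.96, 5.53 and 5.54 in null libraries, which overlap (log2 fold -0.28, adjusted p = 0.098 in limma). Polg2, its accessory subunit, had 3.53 ± 0.09 log2 CPM in shDesmin cells and 3.51 ± 0.32 in null cells (SD, n = 3 each), with a log2 fold of 0.02 (adjusted p = 0.94). Both were lower when scaled by library totals, at log2 folds of -0.99 and -0.69, where the median of all tested genes was -0.75.

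Lrpprc and Slirp encode proteins that form a complex on mitochondrial mRNAs, and on the deposited scale the first was called and the second was not. Lrpprc stood at 8.06, 8.01 and 7.94 log2 CPM in shDesmin libraries and 7.59, 7.40 and 7.36 in null libraries. It was 1.47-fold higher without overlap (adjusted p = 0.00036, limma), but under library totals the log2 fold was -0.16 (adjusted p = 0.32). Slirp stood at 5.47, 5.80 and 5.51 log2 CPM in shDesmin libraries and 5.26, 5.86 and 5.88 in null libraries, which overlap (log2 fold -0.07, adjusted p = 0.73). Lrpprc over Slirp reads were 6.01, 4.65 and 5.41 in shDesmin libraries and 5.05, 2.91 and 2.80 in null libraries. Here the first null library lay among the shDesmin values, and the exact permutation p was 0.2.

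The Fastk family held both the lowest and the highest log2 fold of the 16 nuclear genes, -1.88 for Fastkd1 and 0.74 for Fastk. Fastkd1 (ENSRNOG00000024335, chromosome 3, 55925599 to 55951584) had 54, 28 and 59 reads in shDesmin libraries and 283, 241 and 296 in null libraries. Its levels were 2.77, 2.09 and 2.95 log2 CPM in shDesmin libraries and 4.44, 4.45 and 4.54 in null libraries, 3.67-fold lower in shDesmin cells (log2 fold -1.88, SE 0.21, limma adjusted p = 2.1e-05). Fastkd2, which in human cells is needed for the large mitochondrial rRNA and lies at chromosome 9, 70450444 to 70470550, stood at 3.33, 2.88 and 2.85 log2 CPM in shDesmin libraries and 4.26, 4.30 and 4.31 in null libraries. It was 2.41-fold lower (adjusted p = 5.9e-05), with the null libraries almost level and every shDesmin library below them. Fastkd3 stood at 2.50, 2.85 and 2.83 log2 CPM in shDesmin libraries and 3.28, 3.29 and 3.49 in null libraries, 1.55-fold lower in shDesmin cells (adjusted p = 0.0098). These 3 genes were lower under each scaling tried, although Fastkd3 was not called after quantile normalization (adjusted p = 0.084). Scalings that shift genes down in general, such as library totals, could hardly have turned them. Median centring and quantile normalization do not shift genes down. They gave log2 folds of -1.70 and -1.69 (Fastkd1), -1.09 and -1.07 (Fastkd2), and -0.45 and -0.39 (Fastkd3).

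Fastk, the founding member, which in human cells is needed for the ND6 mRNA (ENSRNOG00000011667, chromosome 4, 7260575 to 7264589), stood at 7.05, 7.15 and 6.99 log2 CPM in shDesmin libraries and 6.15, 6.37 and 6.44 in null libraries. It was 1.67-fold higher on the deposited scale (adjusted p = 9.9e-05, limma), without overlap, and was near 0 under library totals (log2 fold 0.03, adjusted p = 0.79). Fastk reads over the summed reads of Fastkd1, Fastkd2 and Fastkd3 were 5.92, 7.61 and 5.81 in shDesmin libraries and 1.40, 1.61 and 1.60 in null libraries. The groups lay far apart at means of 6.45 ± 1.01 in shDesmin cells and 1.54 ± 0.12 in null cells (SD, n = 3 each; exact permutation p = 0.1). These gene-to-gene ratios were chosen after the values were seen, so they describe the split and do not test it independently.

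**Figure D4:**
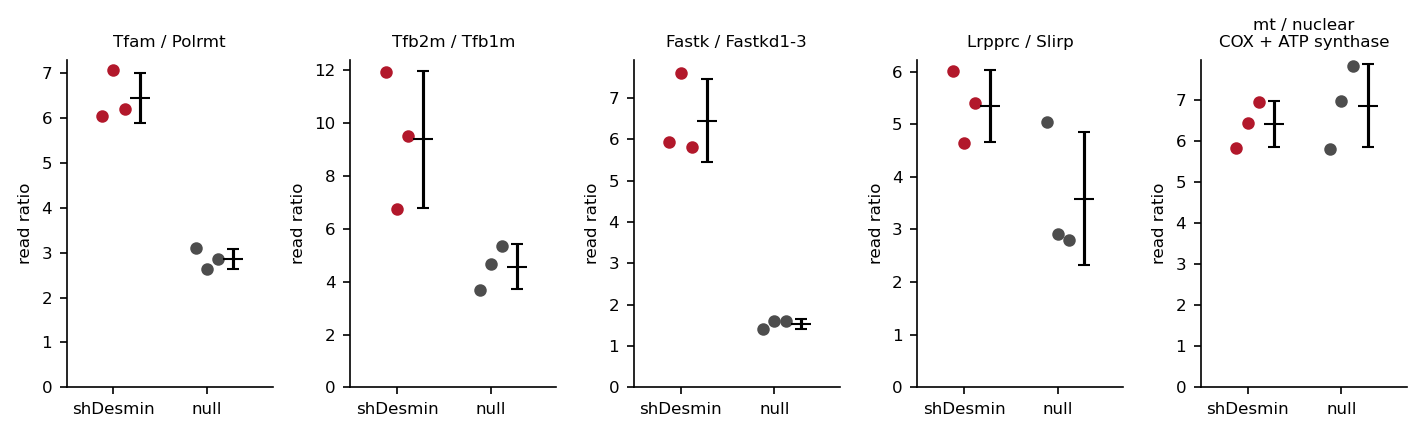
Ratios of reads within each library (y axes, no unit), for Tfam over Polrmt, Tfb2m over Tfb1m, Fastk over the sum of Fastkd1 to Fastkd3, Lrpprc over Slirp, and mitochondrially over nuclear encoded genes of cytochrome c oxidase and ATP synthase. Points are the 3 shDesmin (left) and 3 null (right) libraries and bars are mean and SD. The groups are separate in the first 3 panels and overlap in the last 2.

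**Figure D5:**
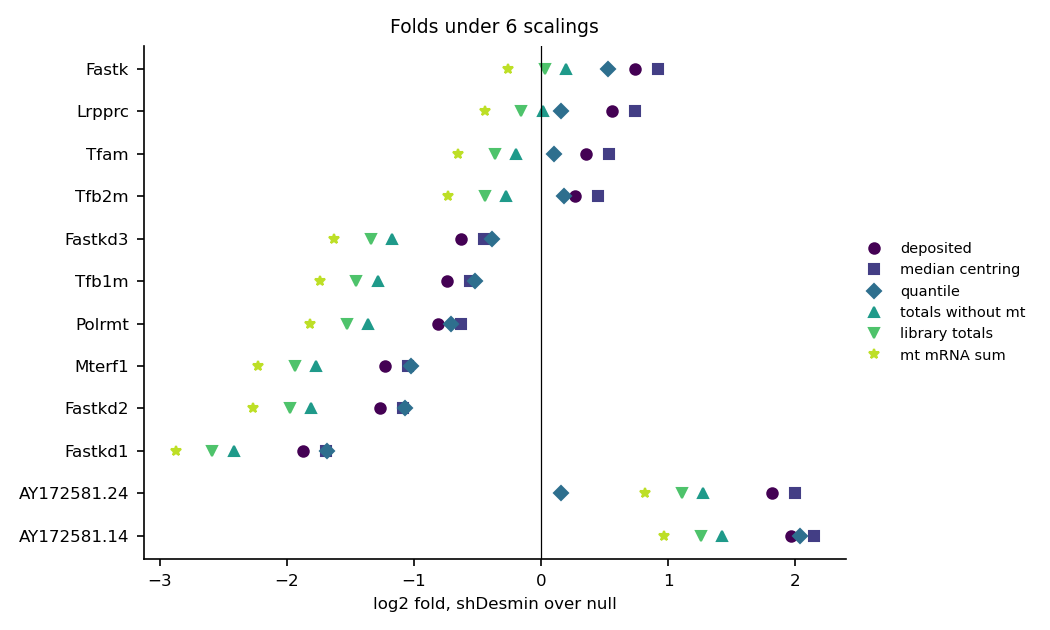
Log2 folds of shDesmin over null (x axis) for the 10 called nuclear genes and for 2 mitochondrial features, the longer rRNA AY172581.24 and the tRNA feature AY172581.14, each under 6 scalings marked by symbol. The 6 lower nuclear genes stay left of 0 under each scaling. Fastk, Lrpprc, Tfam and Tfb2m lie right of 0 on the deposited scale and cross it under at least 1 other. The 2 mitochondrial features stay right of 0, AY172581.24 at 0.16 after quantile normalization (limma adjusted p = 0.25). They had the highest rRNA and tRNA log2 folds on the deposited scale and do not stand for the rest. Of the mitochondrial features not shown, 4 fell below 0 after quantile normalization and 7 relative to the mitochondrial mRNA sum.

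Lists of related nuclear genes also held calls in both directions, as did all tested genes. Of those, 27.5% were higher and 31.4% lower on the deposited scale, with a median log2 fold of -0.04 (-0.75 under library totals). These values are the background for each list below. Of 29 tested genes for mitochondrial RNA processing and stability, 11 were higher and 10 lower on the deposited scale, with a median log2 fold of 0.01 (-0.71 under library totals). The RNase P complex that frees the 5′ ends of mitochondrial tRNAs was divided: Hsd17b10 was 2.28-fold higher (adjusted p = 4.7e-06, limma) and Trmt10c 1.43-fold lower (0.0077). RGD1305089, matched by RefSeq to the catalytic subunit Prorp, was 1.53-fold lower (0.0029). Grsf1, an RNA-binding protein of mitochondrial RNA granules, was 2.06-fold higher (2.1e-06). Lower genes were the helicases Ddx28, by 4.23-fold (3.6e-05), and Dhx30, by 1.81-fold (2.7e-05), both known in mitochondrial ribosome assembly, and Tefm, the elongation factor of Polrmt, by 1.53-fold (0.0013). The rRNA methyltransferases Mrm2 (1.55-fold) and Mrm3 (1.45-fold), the pseudouridine synthases Rpusd3 (1.84-fold) and Rpusd4 (1.64-fold), and Angel2 (1.68-fold) completed the 10 lower genes. Hsd17b10 and Grsf1 were also higher and the lower genes also lower under library totals and quantile normalization. Library totals shift genes down in general, so the lower genes could hardly have turned there.

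Of 19 tested genes for mitochondrial DNA replication and the nucleoid, 2 were higher and 7 lower (median log2 fold -0.24, and -0.95 under library totals). The thymidine phosphorylase Tymp was lower at a log2 fold of -1.38 (limma adjusted p = 9e-06), the mitochondrial topoisomerase Top1mt 2.39-fold lower (0.00037) and the RNA-DNA hybrid nuclease Rnaseh1 2.32-fold lower (2e-04). The inner membrane protein gene Mpv17 was 1.99-fold higher (8e-04), and the nuclease gene Endog 1.54-fold higher (0.00067) but at a log2 fold of -0.09 under library totals. Of 14 tested tRNA modification genes, 2 were higher and 7 lower, with a median log2 fold of -0.52. Trmt5, a tRNA methyltransferase, was 2.76-fold lower, Qtrt1, a subunit of the enzyme that inserts queuine, 2.37-fold lower, and Yrdc, which acts in threonylcarbamoyl modification, 1.62-fold lower. Osgepl1, which acts in the same threonylcarbamoyl pathway in mitochondria, was 1.88-fold higher, and Mto1, a wobble uridine modifier, was 1.35-fold higher (log2 fold -0.28 under library totals).

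Of 21 tested mitochondrial translation factors and activators, 9 were higher and 4 lower (median log2 fold 0.32, and -0.39 under library totals). Oxa1l, which inserts nascent mitochondrial proteins into the inner membrane, was 2.57-fold higher (limma adjusted p = 7.4e-07). The elongation factors Gfm1, Tsfm and Tufm were higher by 1.86-fold, 1.81-fold and 1.63-fold, and stood at log2 folds of 0.19, 0.14 and 0.00 under library totals. The initiation factor Mtif3 was 1.66-fold lower and the GTPase gene Mtg2 1.29-fold lower. LOC100910427, matched by RefSeq to Mtrfr, was 3.30-fold lower, and LOC683897, matched to Mtres1, was 1.47-fold lower.

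Mitochondrially encoded subunits work beside nuclear encoded ones. Of 34 tested nuclear genes for subunits and assembly factors of cytochrome c oxidase and ATP synthase, 32 were higher and 1 lower, with a median log2 fold of 1.02 (0.31 under library totals and 0.40 after quantile normalization). The ATP synthase subunit genes Atp5g1, Atp5c1, Atp5a1 and Atp5g2 were higher by 3.01-fold, 2.73-fold, 2.62-fold and 2.47-fold. Cox6a1, the liver-type isoform of a cytochrome c oxidase subunit, was the lower one, by 1.42-fold (adjusted p = 0.0041, limma). Reads of mitochondrially over nuclear encoded genes of these complexes stood at 5.83, 6.45 and 6.94 in shDesmin libraries and 5.80, 6.97 and 7.82 in null libraries. The shDesmin values lay within the null range (exact permutation p = 0.6), and no difference in the balance of the genomes was detectable with 3 libraries each.

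Of 15 tested nuclear regulators of mitochondrial biogenesis, 7 were higher and 1 lower (median log2 fold 0.24, and -0.47 under library totals). Gabpa, the ETS-family subunit whose core motif is shown above, averaged 5.70 ± 0.09 log2 CPM in shDesmin cells and 4.47 ± 0.27 in null cells (SD, n = 3 each), 2.35-fold higher (limma adjusted p = 2.4e-05; log2 fold 0.52 under library totals). Ppargc1a, the coactivator PGC-1 alpha, was 2.22-fold higher (0.0013), and the nuclear receptor gene Esrrg 1.61-fold higher (0.0049), with log2 folds of 0.44 and -0.03 under library totals. The lower gene was Pprc1, a coactivator related to PGC-1 alpha, at 4.24 ± 0.30 log2 CPM in shDesmin cells and 6.02 ± 0.09 in null cells (SD, n = 3 each), 3.43-fold lower (2.2e-06) and at a log2 fold of -2.49 under library totals.

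Markers of several cell types also differed on the deposited scale, where 27.5% of all tested genes were higher and 31.4% lower. All 9 tested cardiomyocyte markers were higher in shDesmin cells on that scale, although Nppa stood at a log2 fold of -0.20 under library totals. Their median log2 fold was 1.44 (0.73 under library totals and 0.24 after quantile normalization). The mitochondrially encoded genes had medians of 1.18, 0.47 and 0.49 on the same scales. Also higher were the 3 fibroblast markers in the table, whose summed level was 15.4 to 24.7 CPM in shDesmin cells and 2.95 to 9.81 in null cells. Endothelial markers (3 higher and 1 lower of 7, median log2 fold 0.61 and -0.10 under library totals) summed to 249 to 369 CPM in shDesmin cells and 133 to 218 in null cells. Smooth muscle and pericyte markers (5 higher and 1 lower of 7) summed to 535 to 882 in shDesmin cells and 278 to 434 in null cells, and macrophage markers (none higher and 1 lower of 2) summed to 3.95 to 5.18 in shDesmin cells and 17.1 to 17.9 in null cells. No marker present in the table was at 0 reads in all libraries. Their part in the results on mitochondrial transcripts was not tested.

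None of the 16 nuclear genes lay in or touched a lamina-associated domain, a region bound by Lamin B in the chromatin data of the series. Domains were listed for cells with a scrambled shRNA alone, a different control from the null virus of the RNA libraries. Of 11005 tested nuclear genes on the same chromosomes, 519 (4.72%) touched such a domain and 436 (3.96%) lay at least 50% inside one. The gene nearest to one was Fastkd2, at 57.8 kb, and the most distant was Tfb2m, at 3109 kb.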

How the data were processed

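The authors deposited RNA values as log2 CPM, scaled per library with a constant added. Per the submitters' processing notes, Trimmomatic 0.32, STAR 2.6.0c, featureCounts, edgeR and limma were used on builds rn6 and hg19, without stated roles. Each value was a fixed step times a whole read number plus 0.5 (100% of values within 0.001), so reads were recovered and the constant (5.70) subtracted. Where a gene had 0 reads, up to 3 are allowed by counting error alone, which is 0.23 to 0.45 CPM. Per the file headers, the deposited comparison table holds p-values with signed fold and moderated t scores, used for comparison. The domain list holds positions on rn6, from 3 pooled ChIP replicates per the design text in the labels.

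Tests used limma 3.58.1 in R 4.3.3 (eBayes with trend, group as the only term, two-sided) on 11033 of 11383 genes, those whose log2 CPM exceeded 0 in 3 or more of the 6 libraries, with Benjamini-Hochberg adjustment and a threshold of 0.05. The 0.5 added to reads shrinks folds where reads are few. On simulated counts for shDesmin against null over 11033 genes, 88 of 100 genes changed by 1 and 99 of 100 changed by 2 on the log2 scale were recovered, and 7 of 10833 unchanged genes were called. The simulation used the same low dispersion for every gene, known library sizes and few changed genes. In the data 6495 of 11033 genes were called and the scaling was uncertain, so these rates do not carry over to these libraries. Single library values were compared by exact permutation in scipy 1.17.1 (Python 3.11.15, numpy 2.4.6, pandas 2.3.3, matplotlib 3.10.9).

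The members and the 6 pathway and 5 marker lists were chosen with earlier results of these data known. Listed symbols were matched directly or through RefSeq synonyms. Genes named were all members, Des, up to 4 members of each pathway list with the smallest adjusted p, and any list member called against the direction of most. Libraries within a group differed beyond counting noise (chi-square over degrees of freedom 4.94 to 36.7), so each was counted as 1 sample, which does not show separate cultures. Alternatives covered the filter, pseudocount, scaling, variance model, library weights, replicate block, each library left out, the authors' table and, added after the data were seen, voom weights on the recovered reads. ChIP libraries were not used beyond the domain list.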

Additional observations from a re-analysis of the deposited data

How the results depend on the processing

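Scaling decided several results. The 38 members called (28 mitochondrially encoded and 10 nuclear) became 23 (18 and 5) after quantile normalization, with 16 mitochondrial genes higher and 2 lower and 1 nuclear gene higher and 4 lower, where 28.2% of all tested genes were higher and 28.9% lower. Relative to the mitochondrial mRNA sum 20 were called (6 and 14), the mitochondrial ones higher and the nuclear ones lower, where 2.77% of all were higher and 66.1% lower. The median log2 fold of mitochondrially encoded members, 1.18 as deposited, was 0.47 under library totals, 0.49 after quantile normalization, 0.63 under totals without mitochondrial genes and 0.18 relative to the mRNA sum. Quantile normalization gives all libraries the same distribution by construction, and the other scalings change the denominator. Which one suits these libraries was not tested.

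Directions turned for some members. After quantile normalization log2 folds were -0.36 (Mt-nd1) and -0.19 (Mt-co2), both called lower, and -0.082 (Mt-nd3) and -0.035 (Mt-nd5). Relative to the mRNA sum they were -0.21 (Mt-nd1), -0.0015 (Mt-nd2), -0.0011 (AY172581.19), -0.12 (AY172581.12), -0.20 (Mt-co2), -0.19 (Mt-nd3), -0.056 (Mt-nd6), -0.26 (Fastk), -0.44 (Lrpprc), -0.65 (Tfam), -0.999 (Mterf2), -0.98 (Polg2), -0.73 (Tfb2m) and -0.96 (Mterf4). Library totals gave -0.16 (Lrpprc), -0.36 (Tfam), -0.71 (Mterf2), -0.69 (Polg2), -0.44 (Tfb2m) and -0.68 (Mterf4), and totals without mitochondrial genes gave -0.19 (Tfam), -0.54 (Mterf2), -0.53 (Polg2) and -0.27 (Tfb2m).

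Leaving out each library in turn gave 35 to 38 members called, 26 to 28 mitochondrially encoded and 8 to 10 nuclear, medians of 1.04 to 1.29, a Des log2 fold of -3.46 to -3.35 and a read share difference of 5.15 to 10.1 points. Mt-co2 was not called without the second null (adjusted p = 0.056 in limma) or the second or the third shDesmin library (0.076 and 0.09). AY172581.12 was not called in the authors' deposited table (adjusted p = 0.07) or with voom weights (0.05). Libraries with the same replicate number showed weak correlations of deviations (0.13, -0.07 and -0.17), which give no clear sign of pairing but cannot exclude it. With replicate as a block 39 members were called (28 mitochondrially encoded, 11 nuclear), Polg being added (adjusted p = 0.045 in limma), with the median at 1.18 and Des at -3.39. The planned count tests of edgeR and DESeq2 were not run, since the deposited unit is log2.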
